A study of Drosophila melanogaster with 28 samples.

Results

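The RNA-seq step from 18 h to 28 h after heat shock (AHS) was examined in Drosophila ovaries, at the time points that the study assigned from fusome branching to 4-cell cysts (18 h) and 8-cell cysts (28 h), with more mixed stages at later times. Genes were included when they exceeded 10 FPKM (a transcript level scaled by length and by sequenced fragments) at 18 h or 28 h AHS and had a row in the table of ribosome footprints. This gave 6282 genes of the 17783 in the RNA-seq table. The value nearest the minimum on the inside was that of ph-d (10.0177 FPKM at its higher time point), and the nearest on the outside was that of CG4950 (9.99862 FPKM). Of the 6282 genes, 6110 exceeded 10 FPKM at both time points, 52 only at 18 h and 120 only at 28 h.

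All samples were whole adult ovaries of w flies with 1 copy of nosP-GAL4-NGT40 and the mutation bam86 on both homologues, one of which also carried the transgene P{w[+mC]=hs-bam.O}11d. Ovaries without functional bam fill with undifferentiated germ cells like stem cells, and the transgene supplies bam under a heat shock promoter. Flies that had spent 3 days on yeast received 1 h at 37C and 2 h at 34C and then recovered at 25C, which gives one pulse of bam, and the ovaries were taken 18 h or 28 h later. Each group had 2 biological replicates, but the deposited table holds 1 value per gene and time point over both, with lower and upper 95% bounds, so no difference here has a replicate check and no p-value is given. A difference was called when it exceeded 1.6-fold (0.68 on the log2 scale), and for every value in brackets below the range is that of the bounds.

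In the wild-type ovary a stem cell daughter becomes a cystoblast under the control of Bam, a translational regulator, and divides with incomplete cytokinesis into a cyst of interconnected cells. A specialised organelle, the fusome, branches through the cyst, and meiotic chromosome pairing and the choice of the oocyte begin while the cyst forms. Germ cells also start to load mRNAs such as osk that are used in the oocyte and embryo. Follicle cells, which are somatic, later secrete the vitelline membrane and the chorion that form the eggshell. Since whole ovaries were sequenced, a difference in RNA per cell and a difference in the number of cells of a type cannot be told apart.

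The tissue label was checked against fixed markers. All 9 germline markers exceeded 10 FPKM, and their summed level was 872 FPKM at 18 h and 1030 FPKM at 28 h. Markers of follicle, escort and cap cells summed to 810 and 850 FPKM, with 7 of 14 over 10 FPKM, and all 17 markers of the ovarian muscle sheath exceeded 10 FPKM, with sums of 2488 and 2822 FPKM. The 10 hemocyte and fat body markers summed to 260 and 272 FPKM. The 15 eggshell and yolk markers had the largest sums, 43246 and 55308 FPKM, to which the vitelline membrane gene Vm34Ca (11347 and 15464 FPKM) contributed most. No marker was listed at 0 at either time point.

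Few mRNAs differed between 18 h and 28 h AHS. Of the 6282 genes, 29 (0.462%) were over 1.6-fold higher at 28 h and 7 (0.111%) were lower, and 94.2% of all genes lay within 1.25-fold. The median log2 difference was 0.04, with the 5th percentile at -0.21 and the 95th at 0.30. The genes higher at 28 h included the oocyte genes osk, mtrm and alphaTub67C, the chorion genes Cp36 and Cp38, and CG45087, the most abundant of the 29. Of all genes, 3977 (63.3%) were above their 18 h value and 2305 (36.7%) below it, and the counts for gene lists given in the following text are to be read against these shares. The genes lower at 28 h included Hsp23, bam, the chorion gene Cp15 and RpL41. The differences were small: among the 29 higher genes they ran from 0.69 (CG4393) to 1.00 (Osi20) on the log2 scale, and only Cp15, Hsp23 and CG32814 were lower by more than 1 on that scale.

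**Figure D1:**
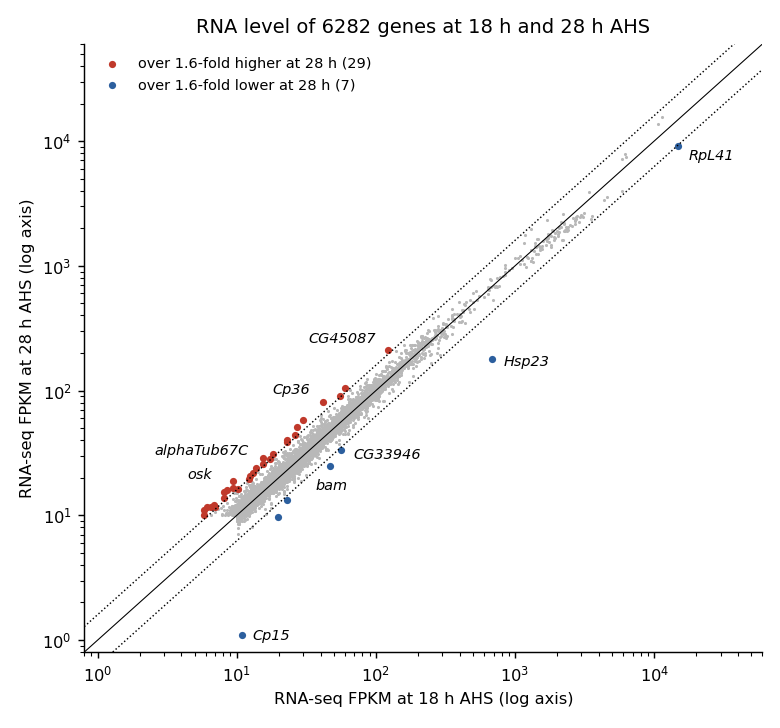
RNA-seq FPKM of 6282 genes at 18 h AHS (x axis, log scale) and 28 h AHS (y axis, log scale), with the line of equality and dotted lines at 1.6-fold. The 29 red points are genes higher at 28 h, all close above the upper dotted line, and among the 7 blue points Cp15 and Hsp23 lie farthest from the diagonal.

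The bounds of a single gene were wide compared with these differences, with a median half-width of 19.7% of the value at 18 h and 19.6% at 28 h. Over all genes, 40 (0.637%) had bounds that did not overlap between the time points, among them 18 of the 29 higher and 5 of the 7 lower genes. The other 13 called genes have overlapping bounds. At the fold threshold, CG4393 (0.69) and RpL41 (-0.69) lay just inside, and CG4570 (0.67) and the histone gene His1:CG33801 (-0.66) just outside. Of the called genes, 8 of the 29 higher and 4 of the 7 lower are on lists of heat shock responders or eggshell contaminants that the study set aside, which leaves 21 higher and 3 lower genes.

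Among the 5 steps between neighbouring time points, with 0.5 h AHS left out, this one had the smallest number of called genes. From no HS to 5 h, 45 genes of 6303 were higher (0.714%) and 74 lower (1.17%), and from 5 h to 9 h, 37 of 6249 were higher (0.592%) and 79 lower (1.26%). From 9 h to 18 h, 74 of 6271 were higher (1.18%) and 6 lower (0.0957%), and from 28 h to 38 h, 46 of 6388 were higher (0.72%) and 19 lower (0.297%). The steps that end at 18 h and start at 28 h share those values with the step described here, so the levels are given side by side below and no overlap of the lists is counted.

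**Figure D2:**
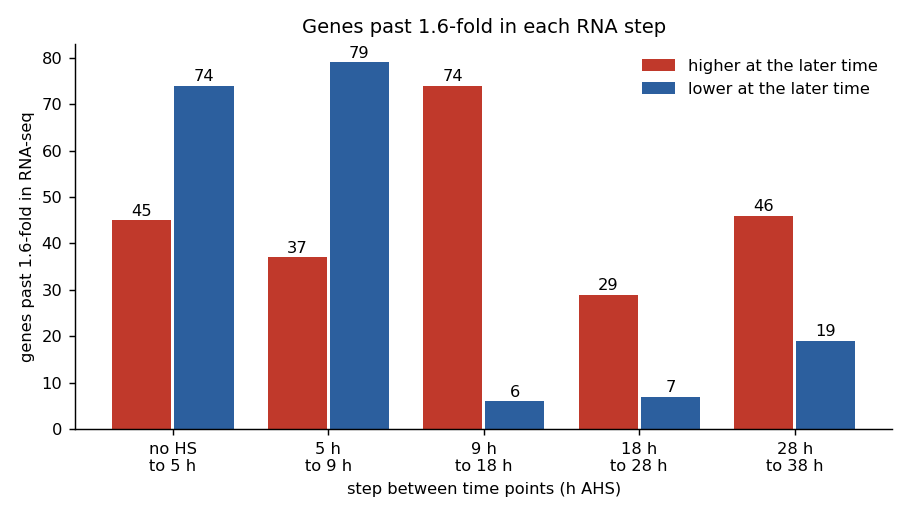
Number of genes past 1.6-fold (y axis) in each RNA-seq step between neighbouring time points (x axis), red for genes higher and blue for genes lower at the later time. The step from 18 h to 28 h AHS has 29 higher and 7 lower genes, fewer in all than any other step shown.

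Of the lists of oocyte and meiosis genes, 3 members were past the fold, osk, alphaTub67C and mtrm. osk, whose protein organises the pole plasm, the germ cell determinant at the posterior of the oocyte, is at chr3R:8935126-8938395. Its level was 8.55 FPKM (6.87 to 10.2) at 18 h against 16.04 FPKM (13.0 to 19.1) at 28 h, a log2 difference of 0.91 ± 0.20 (standard error from the bounds). Without heat shock it stood at 0.731 FPKM, and at 9 h and 38 h its values were 0.243 and 58.1 FPKM. Thus osk was at its lowest listed level at 9 h and its highest at 38 h, with the 28 h value between those of 18 h and 38 h.

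alphaTub67C (chr3L:9681268-9683370), a maternal alpha-tubulin of the egg, had 15.4 FPKM (12.3 to 18.4) at 18 h against 25.9 FPKM (21.0 to 30.7) at 28 h, a log2 difference of 0.75 ± 0.20. At 9 h and 38 h its values were 1.98 and 42.2 FPKM. mtrm (chr3L:8413012-8414103), which encodes an inhibitor of Polo kinase in the prophase oocyte, had 9.42 FPKM (1.77 to 17.1) and 16.5 FPKM (5.83 to 27.1), a difference of 0.81 ± 0.75, and 1.59 and 27.5 FPKM at 9 h and 38 h. The estimate of mtrm is imprecise: it shares a locus with 4 other genes in the table and its bounds overlap.

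Other genes of these lists did not pass the fold. nos, the translational repressor of the posterior, had 65.3 FPKM (48.2 to 82.4) at 18 h against 102 FPKM (78.2 to 125) at 28 h, a log2 difference of 0.64. gammaTub37C, the maternal gamma-tubulin, had 14.2 FPKM (11.4 to 16.97) and 22.1 FPKM (17.95 to 26.2), also 0.64, with bounds that did not overlap. stau, whose protein takes part in mRNA localisation, had -0.35, the lowest of the axis list. The thioredoxin gene dhd had log2 0.53, the CPEB protein gene orb 0.51 and the translational repressor gene bru1 0.39, with overlapping bounds. vas, a helicase present in the germline throughout, had 192 and 205.4 FPKM (0.10). png, a kinase gene needed at egg activation, stayed below the minimum, with 6.06 and 8.68 FPKM.

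Over the whole list of axis and pole plasm mRNAs, 1 of 14 measured genes (osk) was past the fold and 12 were above their 18 h value, with a median log2 difference of 0.18 beside 0.04 over all genes. For oocyte meiosis and egg activation, 2 of 14 (mtrm and alphaTub67C) passed and 10 were above, with a median of 0.11. The latter share is close to the 63.3% over all genes. Among genes of the synaptonemal complex and meiotic cohesion none of 12 passed, and 9 were above 18 h (median 0.11). The largest values there were those of solo, a cohesion gene (0.56), c(2)M, a lateral element gene (0.47), and c(3)G, the transverse filament gene, which had 77.3 FPKM (62.7 to 92.0) and 103 FPKM (83.3 to 122), a difference of 0.41. For meiotic recombination and break repair none of 14 passed and 8 were above (median 0.13), no larger a share than among all genes, and the highest values were those of narya (0.61), mei-218 and nenya (both 0.47).

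CG11674, CG12689 and CG32720, for which no role is given here, were also higher at 28 h. CG11674 (chrX:14224647-14225879), for which the study made in situ probes, had 6.539 FPKM (0 to 13.5) at 18 h against 11.7 FPKM (2.30 to 21.2) at 28 h, with 14.3 FPKM at 38 h. CG12689 had 6.10 FPKM (4.40 to 7.79) and 11.7 FPKM (8.86 to 14.4), a log2 difference of 0.93 ± 0.26 with separate bounds. Its 18 h level was so low that the 10 FPKM minimum let it in only with a difference past the fold. CG32720 had 6.84 FPKM (4.41 to 9.26) and 11.99 FPKM (7.94 to 16.1). All 3 genes were at 1.73 FPKM or less at 9 h, and CG11674 and CG32720 share their locus with other genes and have overlapping bounds.

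**Figure D3:**
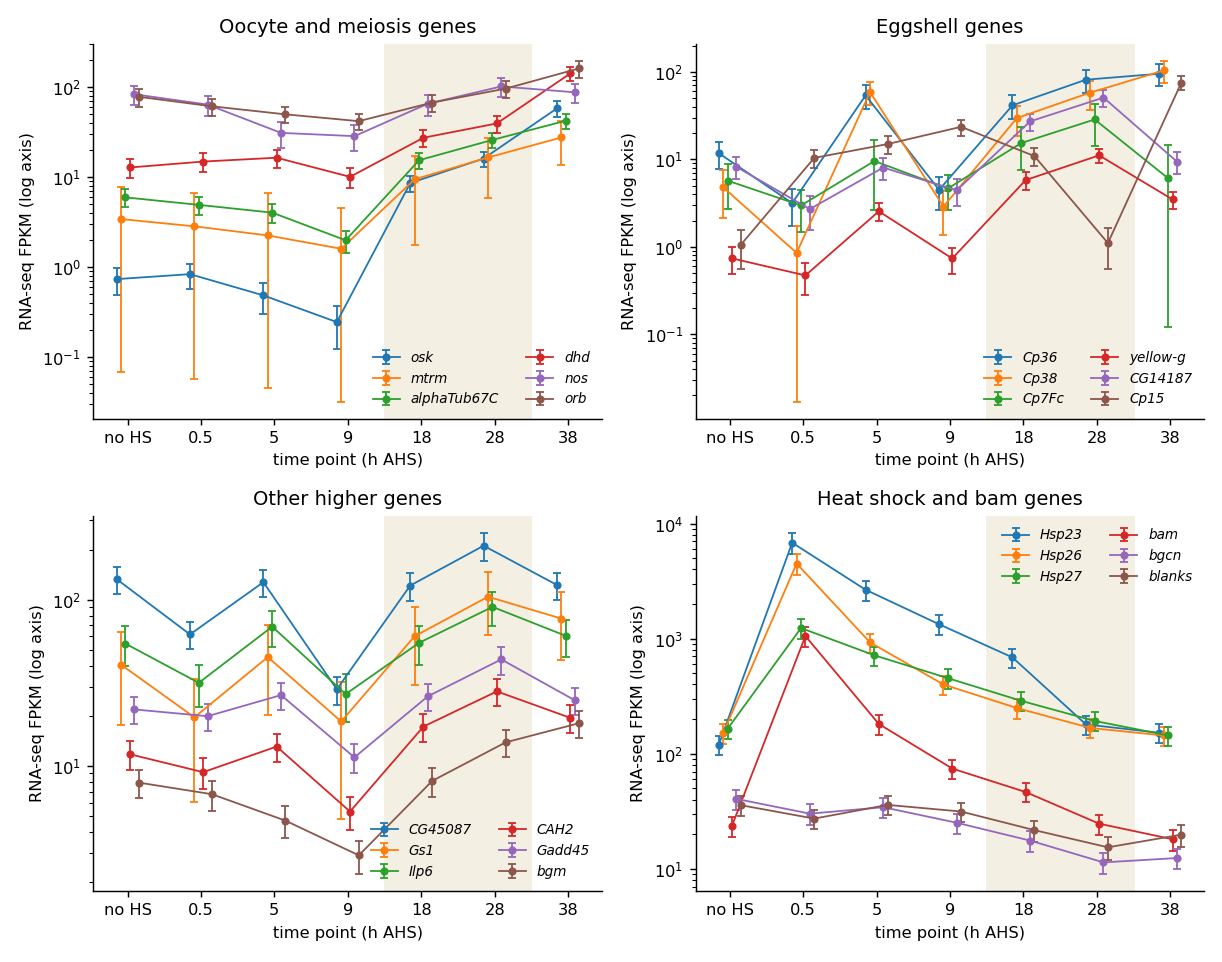
RNA-seq FPKM (y axes, log scale) of 24 genes at the 7 time points (x axes, h AHS), in 4 groups, with bars for the deposited 95% bounds (a lower bound at 0 is drawn at 2% of the value) and the 18 h and 28 h points shaded. osk, mtrm and alphaTub67C are higher at 28 h and again at 38 h, yellow-g and CG14187 are highest at 28 h, Cp15 is lower at 28 h than at 18 h, and Hsp23 and bam are lower at each time after 0.5 h.

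Eggshell genes were also among the 29. The chorion genes Cp36 and Cp38, which lie next to each other on the X chromosome in a cluster amplified in follicle cells, had the highest levels among them. Cp36 (chrX:8479319-8480523) had 41.5 FPKM (28.95 to 54.0) at 18 h against 81.5 FPKM (58.0 to 105) at 28 h, a log2 difference of 0.97 ± 0.30. Cp38 (chrX:8481837-8483311) had 29.7 FPKM (18.5 to 40.9) and 58.0 FPKM (37.0 to 79.1), also 0.97. Cp7Fc, from the same cluster, had 15.4 FPKM (7.56 to 23.2) and 28.6 FPKM (14.1 to 43.1), or 0.90, and Cp7Fb 18.1 FPKM (8.0003 to 28.3) and 30.9 FPKM (12.7 to 49.0), or 0.77. The bounds of Cp38, Cp7Fc and Cp7Fb overlapped, and those of Cp36 did not. These 4 genes share 1 locus of 7 genes in the table, so their estimates are not independent.

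yellow-g and yellow-g2, neighbouring genes of the yellow family that act in the eggshell, differed by 0.94 ± 0.21 and 0.93 ± 0.21 on the log2 scale with separate bounds. yellow-g went from 5.80 FPKM (4.52 to 7.09) to 11.1 FPKM (9.00 to 13.2) and yellow-g2 from 8.02 FPKM (6.27 to 9.76) to 15.2 FPKM (12.3 to 18.2). The 2 genes thus had like levels and like differences, and at 38 h they stood at 3.48 and 3.39 FPKM. From its 18 h level, yellow-g could pass the 10 FPKM minimum only with a difference past the fold. CG14187 and CG14309, both on the lists set aside, differed by 0.90 and 0.75 and were at 9.43 and 1.58 FPKM at 38 h. Obp19c, of the odorant-binding protein family, had 13.8 FPKM (10.7 to 16.9), 24.1 FPKM (19.4 to 28.7) and, at 38 h, 2.48 FPKM.

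Cp15 went the opposite way. This chorion gene of the cluster on chromosome 3L (chr3L:8728481-8729066) had 10.9 FPKM (8.43 to 13.4) at 18 h against 1.10 FPKM (0.555 to 1.65) at 28 h, 9.86-fold lower, the largest difference of the step. Its level was 23.6 FPKM at 9 h and 75.2 FPKM at 38 h. Cp15 therefore differed in direction from the called chorion genes of the X cluster. Of the 31 measured genes on the list of eggshell genes and other contaminants, 7 were past the fold higher and 1 lower, 22 (beside 63.3% of all genes) were above their 18 h value, and the median was 0.26. The summed level of the eggshell and yolk markers, given above, was also higher at 28 h, with 11 of the 15 markers higher and 4 lower. The part of this sum in these results was not tested.

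Upstream sequence is shown for chorion genes that share a short motif, among which Cp15 differed in direction from the others. Hsp23 is shown as the heat shock gene with the largest difference. Each line gives the 150 bases before the annotated gene start in dm6 coordinates, 5′ to 3′ on the strand of the gene, read from the RefSeq copy of the release 6 genome, and none of these bases overlaps an annotated exon. Capitals mark the chorion promoter hexamer TCACGT. They also mark the core promoter motif TATAAA. In Hsp23 they mark, besides, a pair of facing heat shock element units, GAANNTTC. All were searched on both strands.
Cp7Fc (chrX:8476967-8477116): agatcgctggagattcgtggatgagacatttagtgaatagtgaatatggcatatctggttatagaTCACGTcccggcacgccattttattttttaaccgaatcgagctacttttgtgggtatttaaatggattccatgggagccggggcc
Cp36 (chrX:8479169-8479318): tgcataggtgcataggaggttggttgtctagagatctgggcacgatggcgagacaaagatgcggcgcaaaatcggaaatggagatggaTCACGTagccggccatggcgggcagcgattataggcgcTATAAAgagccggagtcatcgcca
Cp38 (chrX:8481687-8481836): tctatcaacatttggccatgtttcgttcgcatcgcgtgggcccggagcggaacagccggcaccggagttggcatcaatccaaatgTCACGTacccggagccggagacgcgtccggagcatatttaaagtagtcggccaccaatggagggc
Cp15 (chr3L:8728331-8728480): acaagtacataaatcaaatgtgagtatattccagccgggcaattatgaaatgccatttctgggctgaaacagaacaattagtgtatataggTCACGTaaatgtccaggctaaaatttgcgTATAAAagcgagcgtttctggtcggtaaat
Hsp23 (chr3L:9381732-9381881): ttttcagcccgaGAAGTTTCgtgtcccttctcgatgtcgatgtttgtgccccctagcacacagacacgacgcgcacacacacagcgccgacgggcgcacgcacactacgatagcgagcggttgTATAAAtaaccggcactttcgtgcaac

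In the 250 bases before the gene start, TCACGT was found on either strand in 721 of 13945 protein-coding genes (5.17%), in 283 of 6268 of the expressed genes with a window (4.51%), and in 4 of the 29 genes higher at 28 h, namely Cp7Fc, Cp36, Cp38 and the potassium channel gene eag. Its first base was 62 bases before the start of Cp36, 65 before Cp38, 85 before Cp7Fc and 59 before Cp15. Of the 7 lower genes, 2 had it (Cp15 and CG32814). yellow-g, yellow-g2, CG14187 and Cp7Fb had no match in this window. TATAAA was in 43.0% of all windows, in 10 of the 29 higher genes and in 6 of the 7 lower. GAANNTTC was in 7.62% of all windows, in none of the 29 and in 2 of the 7 lower genes (Hsp23 and BomS6). The letters are a description of these windows and do not show binding.

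The other higher genes are given next with their roles where known. CG45087 (chr2R:18536767-18539416) had the highest level of the 29, with 122 FPKM (98.4 to 145) at 18 h against 211 FPKM (171 to 251) at 28 h, a log2 difference of 0.80 ± 0.19. It had 133 FPKM without heat shock and 28.9 FPKM at 9 h, so its 18 h value was close to that before the heat shock. Gs1, the glutamine synthetase gene, had 60.2 FPKM (30.4 to 90.0) and 104 FPKM (61.1 to 147), and the insulin-like peptide gene Ilp6 had 55.0 FPKM (40.4 to 69.5) and 90.5 FPKM (69.0 to 112), both with overlapping bounds.

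bgm, a gene of very long-chain fatty acid activation, had 8.12 FPKM (6.53 to 9.70) and 13.8 FPKM (11.3 to 16.4), the acyl-CoA oxidase gene Acox57D-d 12.5 FPKM (4.04 to 20.9) and 20.7 FPKM (7.78 to 33.6), and the carbonic anhydrase gene CAH2 17.2 FPKM (13.9 to 20.5) and 28.0 FPKM (22.8 to 33.2). The stress-inducible gene Gadd45 had 26.2 FPKM (21.3 to 31.1) and 43.7 FPKM (35.3 to 52.1). Only Acox57D-d of these has overlapping bounds. Osi20, of the Osiris family, had the largest difference of the 29, from 9.37 FPKM (7.34 to 11.4) to 18.8 FPKM (15.2 to 22.4), or 1.00 ± 0.21 on the log2 scale, with 0.934 FPKM at 9 h and 6.56 FPKM at 38 h.

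CG4393, Nost, X11Lbeta, Ir7c, eag and CG46312 complete the 29 and were chosen for mention after their values were seen. Their log2 differences ran from 0.69 to 0.81. Ir7c, of the ionotropic receptor family, had 23.1 FPKM (18.8 to 27.3) and 38.98 FPKM (31.9 to 46.0), and was at 23.07 FPKM in the 38 h samples. X11Lbeta, an adaptor protein gene, had 6.96 FPKM (5.57 to 8.35) and 11.7 FPKM (9.44 to 13.9). Both it and eag, with 5.83 FPKM (4.55 to 7.11) and 10.1 FPKM (8.01 to 12.3), passed the 10 FPKM minimum only at 28 h. From its 18 h level, eag could do so only with a difference past the fold. CG4393 had 10.1 FPKM (8.20 to 12.1) and 16.3 FPKM (13.1 to 19.5). Nost had 12.2 FPKM (8.70 to 15.6) and 19.6 FPKM (14.5 to 24.7), and CG46312 22.8 FPKM (8.98 to 36.7) and 40.1 FPKM (19.1 to 61.1), both in shared loci and with overlapping bounds.

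A further 17 genes had bounds that did not overlap but differed by less than 1.6-fold, and those named here were also chosen after their values were seen. They are given as examples and not as a group. The dipeptidase gene Dip-B had 1307 FPKM (1048 to 1566) and 1974 FPKM (1578 to 2371), a log2 difference of 0.60. The monocarboxylate transporter gene Mct1 had 44.9 FPKM (36.3 to 53.5) and 68.1 FPKM (55.2 to 81.0), also 0.60, and CG5958 had 257 FPKM (208 to 307) and 382 FPKM (309 to 454), or 0.57. Thus the step also held abundant transcripts with small differences whose bounds lay apart. The lower ones were His1:CG33801, bgcn, Hsp27, Hsp26 and RpL38.

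By position, 14 of the 29 higher genes lie on the X chromosome, which holds 17.7% of the 6282 genes, and 4 of the 14 are the neighbours of the chorion cluster. Of the other higher genes 6 lie on 3L, 4 on 3R, 3 on 2R and 2 on 2L. The lower genes lie on 3L (3), 2R (2), 3R (1) and X (1). By level, 13 of the 29 were among the 1742 genes of at most 20 FPKM at their higher time point, 10 among the 2783 genes of 20 to 50 FPKM, 5 among the 1455 of 50 to 200 FPKM and 1 among the 302 above that. The higher genes had a median exonic length of 1899 bases beside 2229 bases over all annotated genes of the comparison. Exonic lengths of the 7 lower genes ran from 198 bases (BomS6) to 1946 bases (bam), with 310 for CG33946 and 320 for RpL41. A locus shared with other genes in the table was found for 18 of the 36 called genes and for 51.9% of all 6282. Among the 18 are osk (3 genes in its locus), bam (2), yellow-g (2) and Acox57D-d (2). Gs1 (15 genes), Ilp6 (6) and X11Lbeta (4) are also among them.

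Levels of the 29 genes, which were chosen by their 18 h and 28 h values, are given next over the time course. Their median was 6.05 FPKM without heat shock. It was 7.82 and 4.10 FPKM in the 5 h and 9 h samples, 13.1 and 21.98 FPKM over the step itself, and 15.9 FPKM in the 38 h samples. The rise of this median over the step follows from the choice of genes. After 28 h the genes split. 12 were higher again at 38 h, with medians of 14.9 FPKM at 28 h and 22.8 FPKM at 38 h. The other 17 were lower again, with medians of 28.6 and 10.4 FPKM. At 18 h, 11 of the 29 were at or below 10 FPKM and entered through their 28 h value. CG12689 (6.10 FPKM), yellow-g (5.80 FPKM) and eag (5.83 FPKM) were so low at 18 h that only a difference past the fold could bring them over the minimum. Their calls thus follow from the filter. The same holds for Cp15 among the lower genes, with 1.10 FPKM at 28 h.

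Lipid storage and yolk uptake genes had a median log2 difference of 0.22, with 14 of 17 above their 18 h value and none past the fold. The lipase gene Lip4 had 0.57 and non-overlapping bounds, and the lipid droplet genes Lsd-1 and Lsd-2 had 0.52 and 0.45. Muscle sheath genes had a median of 0.18, with 16 of 17 above and none past the fold, led by the actin gene Act87E (0.36). For the piRNA pathway, which silences transposons, 30 of 35 genes were above with none past the fold and a median of 0.10, led by moon (0.58) and piwi (0.37). Other lists had medians close to that of all genes: 0.07 for fusome, ring canals and oocyte transport (19 genes), 0.06 for translational repression and decapping (26 genes), 0.05 for histones and chromatin (20 genes), 0.08 for follicle, escort and cap cells (7 genes) and 0.12 for hemocyte and fat body (6 genes). None of these lists had a called gene, and the values nearest the fold were eIF4E3 (-0.65) and nos (0.64), both on the translational repression list, with the germline linker histone gene BigH1 at 0.60.

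The genes lower at 28 h besides Cp15 included a heat shock gene and bam. The small heat shock protein gene Hsp23 (chr3L:9381882-9382765) had 687 FPKM (557 to 817) at 18 h against 180 FPKM (145 to 214) at 28 h, 3.82-fold lower, after a value of 6813 FPKM 0.5 h AHS. It ended at 152 FPKM in the 38 h samples, beside 119.98 FPKM without heat shock. Hsp26 and Hsp27, in the same gene cluster, both had a log2 difference of -0.58 with separate bounds, short of the fold. Their 28 h values of 167 and 193 FPKM were close to the 151 and 165 FPKM measured without heat shock. Hsp23 was 5.72-fold above its level without heat shock at 18 h and 1.50-fold above it at 28 h.

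bam (chr3R:25243039-25245109), the gene of the transgene, had 46.5 FPKM (37.8 to 55.2) at 18 h against 24.7 FPKM (19.9 to 29.5) at 28 h, 1.88-fold lower. The value 0.5 h AHS was 1053 FPKM, which matches the label of a heat shock pulse, and without heat shock it was 23.7 FPKM (19.0 to 28.3), a range that includes the 28 h value. bgcn, whose protein works with Bam, had 17.6 FPKM (13.9 to 21.3) and 11.4 FPKM (9.06 to 13.7), a log2 difference of -0.63 with separate bounds, short of the fold, and had 40.5 FPKM without heat shock. Of the 16 genes of cyst differentiation and sex determination 1 (bam) passed the fold, 11 were above 18 h (beside 63.3% of all genes) and the median was 0.08. Others of that list were the double-stranded RNA-binding protein gene blanks (-0.49), the transcription factor gene ovo (0.51), mei-P26 (0.17) and Rbfox1 (0.17).

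On the list of heat shock responders, which the study chose by the effect at 0.5 h AHS in these samples, so that its count is not independent evidence of direction, and which holds several genes that are not chaperones, 4 of 41 genes were lower and 2 higher past the fold, with a median of 0.11. The lower ones were Cp15, Hsp23, bam and the immune peptide gene BomS6, and the higher ones Cp36 and CG14309. BomS6 had 23.1 FPKM (14.4 to 31.7) and 13.2 FPKM (7.12 to 19.3), and it was the only antimicrobial peptide gene over 10 FPKM of the 27 listed. CG33946 (chr3L:6220578-6220949) had 55.9 FPKM (43.2 to 68.6) and 33.4 FPKM (25.3 to 41.6), against 13.4 FPKM without heat shock. CG32814, for which the study also made probes, had 19.7 FPKM (5.62 to 33.7) and 9.65 FPKM (0.217 to 19.1) with overlapping bounds in a locus of 7 genes, and 62.5 FPKM without heat shock.

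The study made in situ probes, used in wild-type germaria, for 3 of the called genes, and 1 of each set is shown. They do not show which transcript the FPKM values measured. Each probe shown is antisense to the gene, lies in an annotated exon and matched the genome once. Some other probes of the CG32814 set matched the genome at 2 places.
mtrm (1 of 32, chr3L:8413018-8413035): tgcgaattcaagctggca
CG11674 (1 of 32, chrX:14225850-14225867): accagtaccgttacttgc
CG32814 (1 of 30, chrX:1021570-1021587): aatgattccgctactcat

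Ribosomal protein and DNA replication genes had the lowest list medians among lists of over 1 measured gene, with 1 gene past the fold. Of 87 cytosolic ribosomal protein genes 77 were below their 18 h value, beside 36.7% of all genes, 1 (RpL41) passed the fold, 2 (RpL41 and RpL38) had separate bounds and the median log2 difference was -0.18, beside 0.04 over all genes. RpL41, which encodes the smallest ribosomal protein, had 14714 FPKM (11615 to 17812) at 18 h against 9129 FPKM (7200 to 11058) at 28 h. It had 7879 FPKM at 9 h, so its 18 h level stood above those on either side. RpL41 lies in a locus of 5 genes in the table. Its exonic length is 320 bases, beside a median of 2229 bases over all annotated genes of the comparison. Whether length bears on its values, or on those of the other genes of this list, was not tested. RpL38 (-0.56), RpL29 (-0.55) and RpL39 (-0.51) had the next lowest values, and RpS19b (0.19) and RpL22 (0.16) the highest. Over the time course, the median of the list against no HS was -0.06 on the log2 scale for 9 h, 0.30 for 18 h and 0.11 for 28 h.

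Of 44 DNA replication genes 36 were below their 18 h value, none passed the fold and the median was -0.17. The lowest were Pol32 (-0.52), a subunit gene of DNA polymerase delta, the ribonucleotide reductase gene RnrL, with 82.1 FPKM (66.4 to 97.9) and 60.9 FPKM (49.2 to 72.6), a difference of -0.43, DNApol-delta (-0.41) and the licensing factor gene dup (-0.33). The bounds of all 44 overlapped. Against no HS the list had a median of 0.47 for 9 h, 0.20 for 18 h and 0.06 for 28 h. Cyclins and cell cycle switches had a median of -0.05, with 15 of 22 below and none past the fold, and the largest differences were those of the anaphase activator gene fzy (-0.46) and of shtd (-0.36), a subunit gene of the anaphase-promoting complex.

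**Figure D4:**
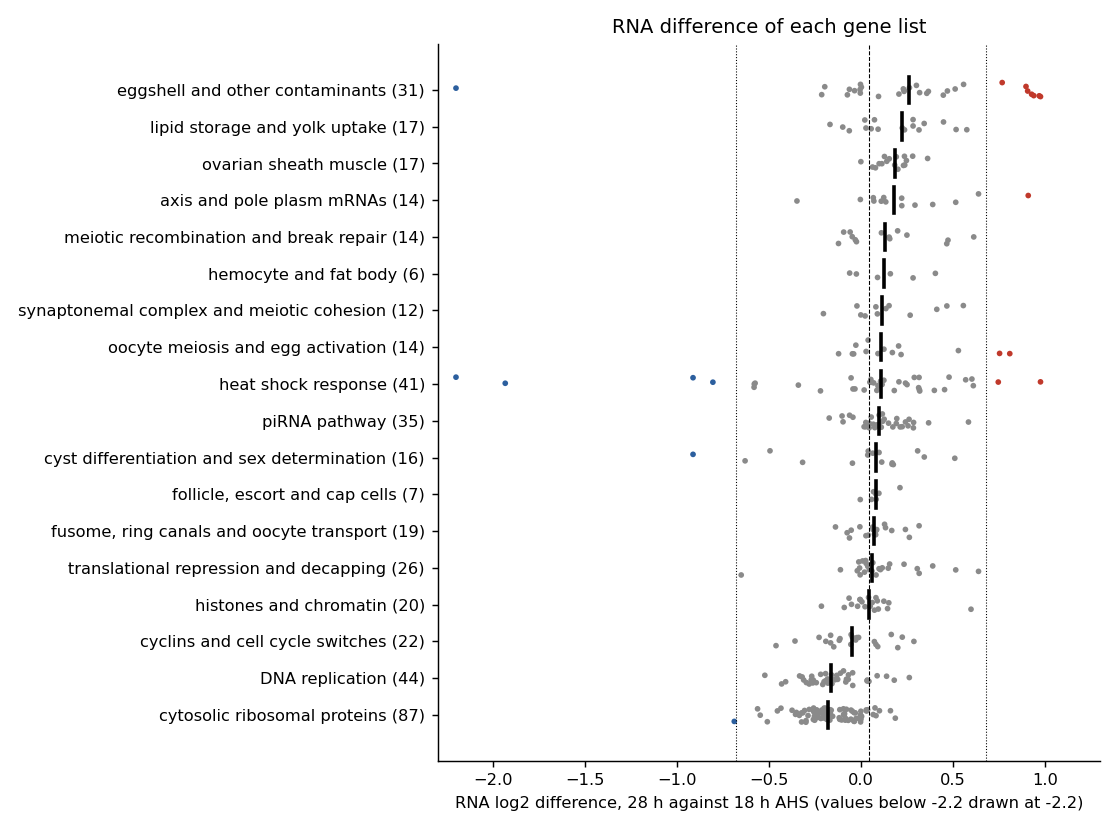
RNA log2 difference at 28 h against 18 h AHS (x axis) for each measured gene (points) of the 18 lists with over 1 measured gene (rows, number of genes in brackets; the antimicrobial peptide list, with BomS6 alone, is left out), with black bars at the list medians, a dashed line at the median of all genes and dotted lines at 1.6-fold. Ribosomal protein genes (-0.18) and DNA replication genes (-0.17) have the lowest medians of these lists and the eggshell list (0.26) the highest, and coloured points are the called genes.

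Ribosome footprints of the same genes were compared over the same step. Of the 6282 genes, 5741 exceeded 10 FPKM in the Ribo-seq at either time point. Of these, 106 were over 1.6-fold higher at 28 h (1.85%) and 200 lower (3.48%), with a median log2 difference of -0.12. After rescaling of both time points to the same median, the balance turned, with 166 higher and 94 lower. Of the 29 genes with higher RNA, 22 passed the footprint minimum and 16 of those also had over 1.6-fold more footprints, with a median of 1.14 over the 22. Of the 7 with lower RNA, all passed the minimum, 2 (Hsp23 and RpL41) were lower and 1 (Cp15) was higher in footprints. In all, 18 of the 36 called genes had a footprint difference past the fold in the same direction.

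Several called eggshell genes differed more in footprints than in RNA, while the eggshell list as a whole had a footprint median of -0.23, with 9 of 27 genes higher and 10 lower past the fold. CG14187 had 0.44 in footprints beside 0.90 in RNA. Cp36 had 372 FPKM (290 to 454) at 18 h against 1553 FPKM (1204 to 1902) at 28 h in the Ribo-seq, a log2 difference of 2.06 beside 0.97 in RNA. yellow-g had 1.94 in footprints beside 0.94, and Cp7Fc 2.02 beside 0.90. Cp15 had 186 FPKM (132 to 241) of footprints at 18 h against 5594 FPKM (4365 to 6824) at 28 h, 4.91 on the log2 scale, while its RNA differed by -3.30. The RNA-seq and Ribo-seq libraries are separate samples in the labels, so the opposite signs are a difference between samples as well as between assays.

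Footprints of the oocyte genes past the fold in RNA were low at 18 h. alphaTub67C had 1.85 FPKM (0.201 to 3.49) at 18 h against 18.8 FPKM (13.4 to 24.3) at 28 h in the Ribo-seq, a log2 difference of 3.35 beside 0.75 in RNA, and 43.7 FPKM at 38 h. osk was listed at 0 at 18 h and had 0.272 FPKM (0 to 1.13) at 28 h, followed by 1.64 FPKM in the 38 h samples. CG12689 and CG32720 were listed at 0 at both time points, and mtrm had 1.55 FPKM (0 to 5.42) and 3.80 FPKM (0 to 8.70). No difference in footprints can be read for these genes from bounds of that width. orb, whose RNA was short of the fold, had 25.7 FPKM (19.4 to 32.1) and 65.7 FPKM (50.8 to 80.5), a footprint difference of 1.35.

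Some RNA differences had no counterpart in footprints. Gadd45 had 143 and 121 FPKM of footprints at 18 h and 28 h (-0.25), Ilp6 248 and 256 FPKM (0.04), Ir7c 14.3 and 13.4 FPKM (-0.09) and CG14309 88.7 and 82.1 FPKM (-0.11). bam had 24.1 and 22.7 FPKM (-0.09). All of these had overlapping footprint bounds, so no footprint difference can be read for them, which does not show that there was none. By list, footprints of ribosomal protein genes had a median of -0.47, with 17 of 87 past the fold lower and none higher. Muscle sheath genes had a footprint median of -0.59 over 14 genes, 6 of them past the fold lower, while their RNA median was 0.18.

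**Figure D5:**
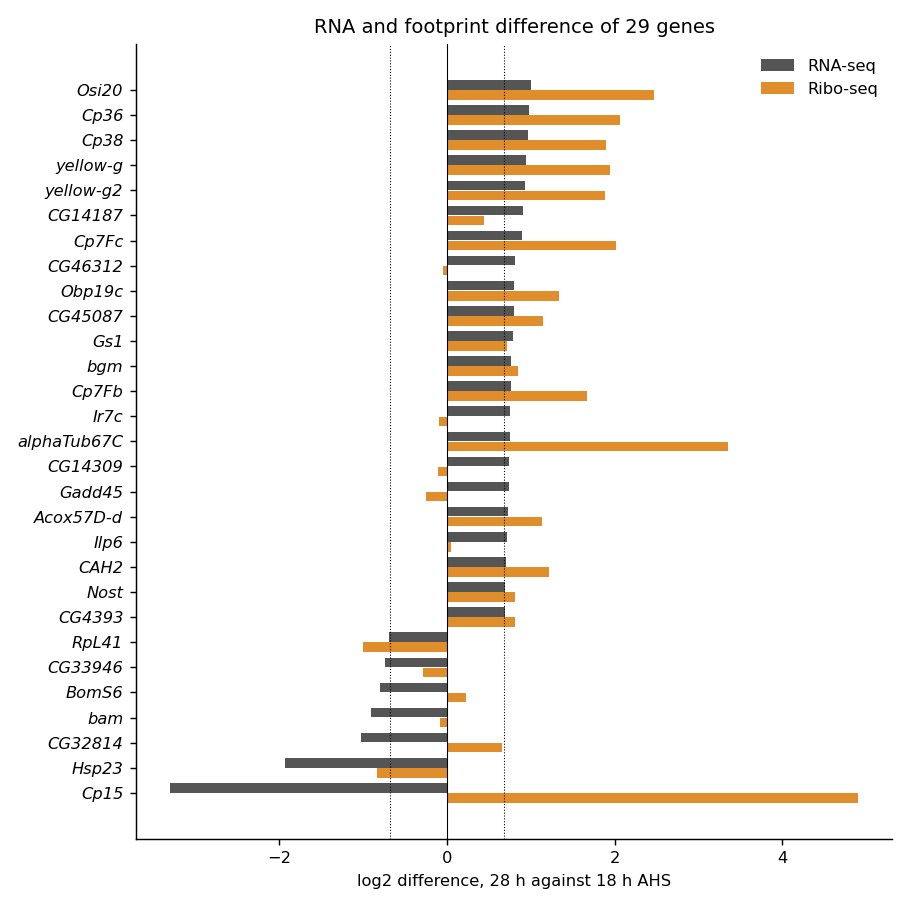
Log2 difference at 28 h against 18 h AHS (x axis) in RNA-seq (grey bars) and Ribo-seq (orange bars) for the 29 called genes (rows) with footprints over 10 FPKM, ordered by RNA, with dotted lines at 1.6-fold. Chorion genes of the X cluster such as Cp36 (0.97 and 2.06) have longer footprint bars than RNA bars, alphaTub67C reaches 3.35 in footprints, and Cp15 has bars in opposite directions (-3.30 and 4.91).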

How the data were processed

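RNA-seq and Ribo-seq of whole ovaries were analysed at 7 time points with 2 replicates each. Per the labels and the study's methods, the authors removed reads of non-coding RNAs with Bowtie2 (RNA-seq) or Bowtie (Ribo-seq), mapped the rest to dm6 with STAR and deposited FPKM values from Cuffdiff 2.2.1, 1 per gene and time point over both replicates, with 95% bounds. The normalization between libraries is not given in the sources used here, and FPKM values do not give depth.

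Log2 differences were computed without a pseudocount in Python 3.11.15 with pandas 2.3.3 and numpy 2.4.6; no test was made. The standard error of a difference came from the bounds, taken as 2 standard errors. Bounds that did not hold their own estimate (6 genes) were not used. The call function was tested on simulated data. Genes named were the 10 largest differences each way past the fold, called list members, up to 4 further genes per list and 15 fixed genes; others are stated. The members and gene lists were chosen with earlier results of these data known. The alternatives were other fold, FPKM, pseudocount, scaling, bound and gene filters. Positions are those of the BDGP6 annotation, in dm6 coordinates; 6275 of 6282 genes matched it by name. Apart from its lists of heat shock responders and contaminants, results of the study's own comparisons were not used.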

Additional observations from a re-analysis of the deposited data

How the results depend on the processing

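No paired analysis was possible because the deposited columns carry no replicate. For the same reason no replicate could be left out. The count of 29 genes with higher RNA became 1 at a fold of 2, 16 at a minimum of 20 FPKM, 72 at 2 FPKM, 18 where bounds had to be apart, 48 with genes that have no Ribo-seq row and 14 without shared loci. The count of 7 with lower RNA became 3 at a fold of 2, 30 at 2 FPKM, 3 without the genes set aside by the study, 176 with genes that have no Ribo-seq row and 4 without shared loci. In the Ribo-seq, the 106 higher and 200 lower genes became 52 and 45 at a fold of 2, 166 and 94 after rescaling to the same median, and 56 and 84 with bounds apart. The 18 genes past the fold in the same direction in both assays became 1 at a fold of 2, 10 at 20 FPKM and 10 with bounds apart. The list median for meiotic recombination became 0.47 at 20 FPKM, where few of its genes remain. Rescaling shifted RNA values by -0.05 on the log2 scale, after which the median of the histone list was -0.01, and the hemocyte and fat body median was -0.03 at 20 FPKM. A rescaling to equal sums (0.01) and a demand for 2 standard errors were added after the values were seen and left both RNA counts within 1.5 times.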

Other observations

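Genes without a Ribo-seq row, which are mostly short non-coding RNAs and were not part of the comparison, differed far more in listed FPKM over this step. Of 343 such genes over 10 FPKM at 18 h or 28 h AHS, 19 were over 1.6-fold higher at 28 h and 169 lower, with a median log2 difference of -0.63. By name, 104 of 184 snoRNA genes were lower and 6 higher, as were 22 and 1 of 25 snRNA genes and 19 and 8 of 30 tRNA genes, whereas 5 of 44 lncRNA genes were lower and 2 higher. These genes made up 71.5% of the summed FPKM at 18 h and 55.3% of it at 28 h, beside 56.5% in the 9 h and 52.9% in the 38 h samples. FPKM of transcripts shorter than the fragments depends on the length correction of the estimate. Whether this share bears on the mRNA values at 18 h was not tested. The authors also removed reads that matched non-coding RNA references before mapping. FPKM of these RNA classes may therefore come from reads left after that step and may not give the levels of the RNAs.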
